A study of Mus musculus with 12 samples.

Results

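The genotype dependence of the fluid-flow shear stress (FFSS) response was examined in Ocy454 cells, a mouse osteocytic line, by RNA-seq of polyadenylated RNA. All 12 of the 12 libraries were used, 3 in each of 4 groups: control cells (labelled as original Ocy454 cells) kept static, control cells exposed to FFSS for 3 h, HDAC4 and HDAC5 deletion cells (DKO) kept static, and DKO cells exposed to FFSS for 3 h. The cells carry a temperature-sensitive T antigen, and FFSS was applied by rotating the culture plates. The DKO cells were made with CRISPR/Cas9 and each genotype is 1 line, so that an effect of the deletion cannot be told apart from a difference between the lines. The labels do not say that replicates are separate cultures, so the p-values measure the spread between these libraries only. For each gene the interaction was estimated, that is, the log2 change under FFSS in DKO cells minus the log2 change under FFSS in control cells. Of 14904 genes tested, 97 (0.651%) passed the threshold for an interaction (adjusted p below 0.05 in edgeR's quasi-likelihood test and more than a 2-fold difference between the responses).

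Osteocytes lie within bone matrix and read fluid movement past their processes. The deleted genes encode class IIa histone deacetylases, which repress transcription from the nucleus, largely through MEF2 transcription factors, and leave the nucleus when phosphorylated. An interaction asks whether a gene answers FFSS differently once these proteins are lacking, whatever its level in static cells. A positive interaction means that a gene fell less or rose more in DKO than in control cells, and a negative one that it rose less or fell more. HIF transcription factors, which recur below, are stabilised at low oxygen, and their targets raise glucose uptake, glycolysis and vessel growth.

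The libraries held between 17.6 and 19.2 M reads assigned to genes, so that 3 counts corresponded to 0.156 to 0.171 CPM (counts per M reads assigned to genes, after TMM scaling of the totals). Control FFSS replicate 1 stood apart from the other libraries of its group, with a chi-square per degree of freedom over genes of 63.8 against replicate 2 and 58.03 against replicate 3, while other pairs of replicates lay between 2.02 and 6.45. The reads outside annotated genes made up 5.87% in this library and 9.19% and 10.04% in the other control FFSS libraries. Their mean share was 5.14 ± 0.06% for the control static, 7.11 ± 0.04% for the DKO static and 8.19 ± 0.32% for the DKO FFSS libraries (SD, n = 3 each). Without control FFSS replicate 1 the interaction was called for 1133 genes (7.6%), and each class below is given with and without this library. It was singled out by its own counts in these data. Leaving it out keeps control FFSS replicates 2 and 3 alone, so every p-value without it leaves out the spread that it adds. Of the 13 osteoblast and osteocyte markers examined, 12 to 13 exceeded 1 CPM in each group, although Mepe, a defining osteocyte marker, was near 0.1 CPM in control cells. Chondrocyte markers summed to between 80.0 and 106 CPM in control static and between 2375 and 2966 CPM in DKO static libraries, whereas the 4 endothelial markers summed to at most 1.02 CPM in any library. The part of these differences between the lines in the results was not tested, and in such bulk libraries fewer cells of a type and less RNA per cell cannot be told apart. RNA of Hdac4, by the more abundant of its 2 gene IDs, was at 29.1, 23.9 and 25.5 CPM in control static and 12.1, 16.96 and 14.4 CPM in DKO static libraries, and Hdac5 RNA at 131, 141 and 127 and 82.7, 80.2 and 90.8 CPM, so in static cells RNA of both genes was lower but present in the line labelled as deleted. Under FFSS Hdac4 was at 30.7, 37.8 and 42.6 CPM in control and 13.2, 12.7 and 14.0 CPM in DKO libraries. Hdac5 was not lower in DKO cells under FFSS, at 93.3, 92.4 and 92.9 CPM against 90.2, 71.1 and 82.4 CPM in control libraries. The RNA level does not show whether an edit removed the protein.

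Of the 97 interaction genes, 56 had a positive and 41 a negative interaction. With no limit on the fold difference, 591 genes (3.97%) had an adjusted p below 0.05. In control cells FFSS itself was called for 884 genes, of which 590 rose (3.96%) and 294 fell (1.97%), and in DKO cells for 13 genes (0.0872%). These counts moved with the processing, to 1683 and 38 genes when control FFSS replicate 1 was left out, 1492 and 79 in limma-voom with library weights, and 198 and 50 with the share of reads outside genes as a covariate. The control count was 559 without control FFSS replicate 2 and 497 without replicate 3, and the DKO count 8 without DKO FFSS replicate 2. The interaction contains the control response and shares its libraries, so the classes describe it rather than give it independent support. Of the 97 genes, 80 were called in control cells and 5 in DKO cells, and 0 had a larger change in DKO in the direction seen in control cells. Of the 294 genes that fell in control cells, 49 (16.7%) had an interaction, compared with 31 (5.25%) of the 590 that rose. The genes that rose had a median average abundance of −0.04 log2 CPM and a median standard error of the interaction of 0.61, against 3.66 and 0.44 for those that fell, so the rising genes were measured less precisely. The 590 rising genes had a median log2 change of 1.495 in control and 0.25 in DKO cells, and the 294 falling genes of −1.37 and −0.21.

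**Figure D1:**
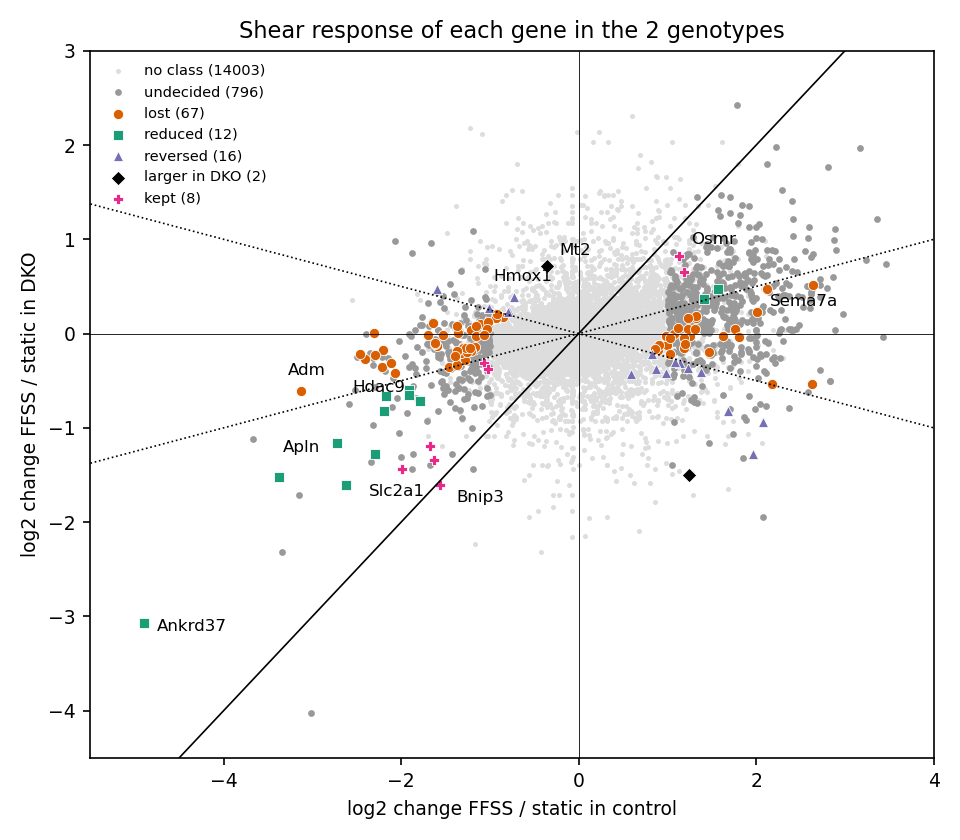
Log2 change of each tested gene under FFSS in control cells (horizontal axis) and in DKO cells (vertical axis), coloured by class, with numbers of genes in the legend. The solid line marks equal responses and the dotted lines a DKO response of 0.25 times the control response in either direction, and the 67 lost genes lie along the horizontal axis.

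Each gene was then classed by its retained share, the DKO log2 change divided by the control log2 change. Interaction genes with a retained share between −0.25 and 0.25 were called lost, those with a larger positive share reduced, those with a share of −0.25 or below reversed, and those whose DKO change exceeded the control change in size larger in DKO. This last class was set first, whatever the direction of the DKO change. A gene called in control cells but not in the interaction was called kept when it moved the same way in DKO cells with an adjusted p below 0.05 and the 95% interval of the interaction stayed within a 2-fold difference, and undecided otherwise. There were 67 lost genes (40 fell and 27 rose in control cells), 12 reduced genes (10 and 2), 16 reversed genes (5 and 11), 2 genes larger in DKO and 8 kept genes (6 and 2). The other 796 control-called genes were undecided, 557 of which rose and 239 fell. Without control FFSS replicate 1 there were 848 lost, 78 reduced, 165 reversed, 42 larger in DKO, 45 kept and 645 undecided genes, and 66 of the 67 lost, 11 of the 12 reduced, 9 of the 16 reversed and 7 of the 8 kept genes stayed in their class. The thresholds divide a continuous range. Uggt2, with an adjusted p of 0.0488, was the last gene inside and Fgf21, with 0.0501, the first outside. Fam65b, with a retained share of 0.24, was the lost gene nearest to reduced, and Prkg2, with 0.26, the reduced gene nearest to lost. Elmo3, at −0.26, and 1700056N10Rik, at −0.24, lay on either side of the limit between reversed and lost. The smallest interaction called was that of Rrad, a small GTPase, at −1.01, while 2310022B05Rik, at 0.997, had an adjusted p below 0.05 but fell short of 2-fold. Among the 67 lost genes 0 had an adjusted p below 0.05 in DKO cells in edgeR, but 7 had a 95% interval of the DKO change that left out 0, so lost does not mean that a gene did not change.

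The responses of each class are summarised by medians, from which single genes departed. Each response was taken against the mean of the static group of the same genotype. The 40 lost genes that fell had median log2 responses of −1.01, −1.60 and −1.51 in the control FFSS libraries, whereas the DKO FFSS libraries gave −0.10, −0.11 and −0.13. For the 27 lost genes that rose, the control libraries gave 0.92, 1.52 and 1.35 and the DKO libraries −0.04, −0.01 and −0.003. The first value in each series belongs to control FFSS replicate 1, in which the lost, reduced and reversed genes had their weakest median response of the control libraries. The lost gene Dact1 differed, with −1.02, −0.88 and −0.89 in these libraries. The 10 reduced genes that fell gave −1.95, −2.42 and −2.47 in the control libraries, against −0.85, −1.04 and −1.01 in the DKO libraries. As the interaction selected these genes, the separation of the genotypes is a description of the classes.

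**Figure D2:**
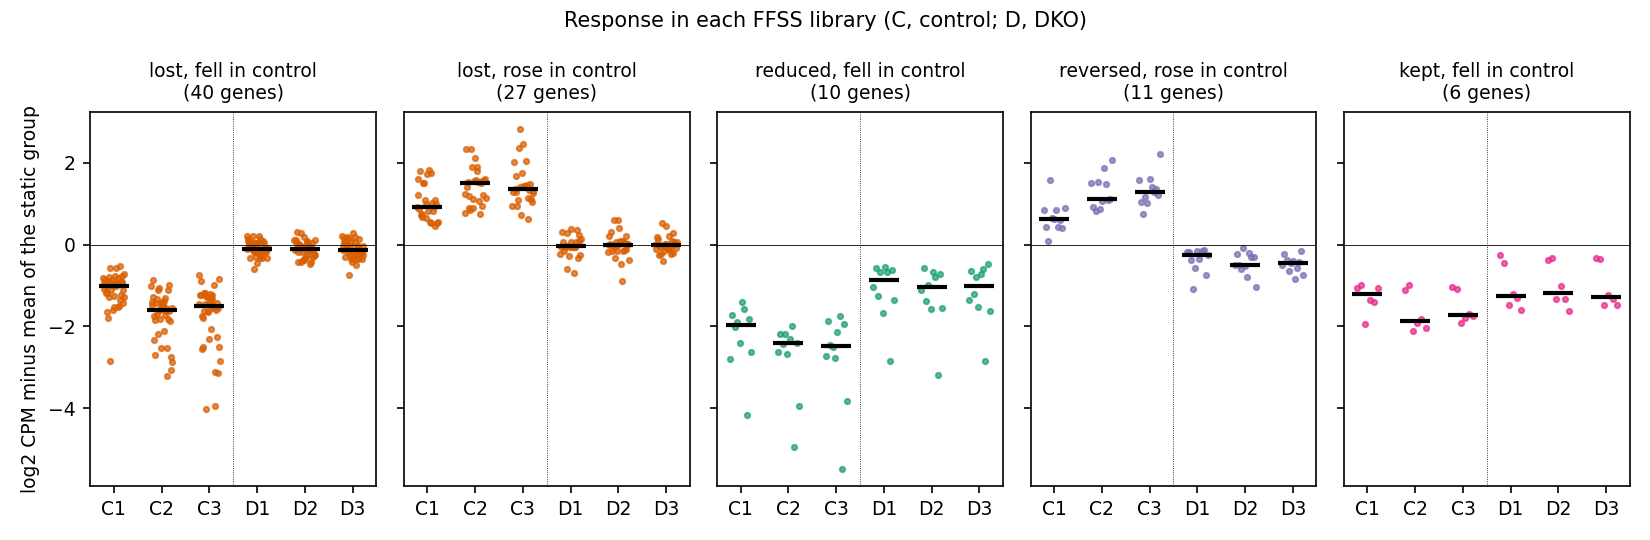
Response of each gene in each FFSS library (C1 to C3, control; D1 to D3, DKO), as log2 CPM minus the mean of the static group of the same genotype, for 5 combinations of class and direction. Points are genes and bars are medians; the lost genes that fell sit near −0.10 to −0.13 in the DKO libraries, and the kept genes that fell are displaced in both genotypes.

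Among the lost genes that fell in control cells were regulators of transcription and of signalling from the membrane. Enrichment of a function among the lost genes was not tested. Bhlhe40, a basic helix-loop-helix repressor that is a HIF target and acts on the circadian clock, was at 709.7, 701 and 706 CPM in the control static libraries and at 333, 266 and 259.7 CPM under FFSS. In DKO cells it was at 230.1, 205 and 254 CPM static and 211, 207 and 208 CPM under FFSS, so that the DKO groups overlapped and both lay below the control FFSS libraries. The log2 change was −1.30 for control and −0.14 for DKO libraries, and the interaction was 1.16 ± 0.13 (adjusted p = 0.000400). Ppp1r13l, which encodes iASPP, an inhibitor of p53 and of the NF-kB subunit RelA, had the smallest interaction p of the lost genes that fell. It fell from 89.8, 89.8 and 83.97 CPM to 49.99, 43.4 and 52.7 CPM in control cells, against 35.3, 32.2 and 36.6 CPM and 40.1, 37.4 and 39.9 CPM in DKO cells. Its interaction was 1.03 ± 0.11 (adjusted p = 0.000305). For this gene, too, DKO cells at rest were already below control cells under FFSS.

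Other lost genes had similar static levels in the 2 lines. Whrn, at chr4:63075944-63157025 on the minus strand of mm9, encodes the PDZ scaffold whirlin, known from the stereocilia of hair cells. It was at 92.2, 86.8 and 88.2 CPM in control static and 46.3, 31.9 and 37.6 CPM in control FFSS libraries, against 106, 105 and 112 CPM in DKO static and 114, 113 and 104 CPM in DKO FFSS libraries. The control groups were apart and the DKO groups overlapped, with an interaction of 1.24 ± 0.14 (adjusted p = 0.000424). Klhl30, a kelch-like gene at chr1:93247593-93258993 on the plus strand, fell from 182, 171 and 184 CPM to 79.5, 53.2 and 53.7 CPM in control cells. It stayed between 167 and 183 CPM in all 6 DKO libraries, and its interaction was 1.52 ± 0.17 (adjusted p = 0.000953). Bcar3, an adaptor of the integrin effector p130Cas, went from 45.8, 47.8 and 48.96 CPM to 26.05, 19.6 and 20.2 CPM in control cells and from 57.9, 63.8 and 52.2 CPM to 63.3, 62.6 and 60.8 CPM in DKO cells (interaction 1.22 ± 0.14, adjusted p = 0.000482). Of Whrn, Klhl30 and Bcar3, each was called in all 22 alternative settings.

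Among the lost genes were also Dact1, a Dishevelled-binding modulator, and Fzd5, a WNT receptor. Of 41 WNT ligands, antagonists and targets tested, Fzd5 was the 1 interaction gene (2.44%, against 0.651% of all genes), and Dact1 is not on that list. Without control FFSS replicate 1, 11 of the 41 were called (26.8%, against 7.6% of all genes), all positive. Dact1 was at 21.3, 20.8 and 22.2 CPM in control static and 10.5, 11.6 and 11.5 CPM in control FFSS libraries, and between 8.80 and 10.9 CPM in the DKO libraries, with an interaction of 1.10 ± 0.13 (adjusted p = 0.000596). Fzd5 was at 232, 211 and 229.8 CPM in control static and 118, 61.1 and 76.5 CPM in control FFSS libraries, in which replicate 1 was the highest. In DKO cells it was at 334, 360.05 and 336 CPM static and 302, 278 and 296 CPM under FFSS, so it was higher than in control cells in every library and its DKO change was −0.23 on the log2 scale (adjusted p = 0.663). The interaction of Fzd5 was 1.16 ± 0.26 (adjusted p = 0.0386), and 13 of the 22 alternatives did not call it. The guidance receptor Robo1 and the peptide hormone Adm behaved alike in direction but were near the floor of 3 counts in control FFSS libraries, at 1.13, 0.439 and 0.0990 and 0.360, 0.635 and 0.0990 CPM, so the size of their control change is imprecise. Their interactions were 2.24 ± 0.51 (adjusted p = 0.0300) and 2.52 ± 0.43 (adjusted p = 0.00804). Robo1 was not called in 10 of the 22 alternatives, while Adm was called in all 22.

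Hdac9, a class IIa family member that was not targeted, was itself a lost gene. It was at 6.77, 6.82 and 5.53 CPM in control static and 1.95, 1.17 and 0.990 CPM in control FFSS libraries. In DKO cells it was at 28.2, 33.4 and 28.2 CPM static and 23.7, 22.4 and 24.1 CPM under FFSS, above every control library. The DKO FFSS libraries were all below the DKO static libraries, but the DKO change of −0.35 had an adjusted p of 0.218. The interaction was 1.86 ± 0.23 (adjusted p = 0.000953) and was called in all 22 alternatives. The targeted Hdac5 had an interaction of 0.85 ± 0.11 (adjusted p = 0.00152), below the 2-fold limit. Mef2c, a MEF2 transcription factor, had an interaction of 1.19 ± 0.52 (adjusted p = 0.210) with all libraries and of 1.91 without control FFSS replicate 1 (adjusted p = 1.23e-17).

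Further lost genes that fell differed in function. Of 21 heat shock chaperones tested, Hspa1b was the 1 interaction gene (4.76%, against 0.651% of all genes). Without control FFSS replicate 1, 2 of the 21 were called (9.52%, against 7.6% of all genes). Hspa1b, the stress-inducible HSP70, was at 32.3, 31.7 and 29.6 CPM in control static and 8.89, 4.69 and 5.40 CPM in control FFSS libraries. In all 6 DKO libraries it was between 1.81 and 2.30 CPM, and its interaction was 2.31 ± 0.31 (adjusted p = 0.00161). As Hspa1b has a near-identical neighbour, Hspa1a, and reads aligning to several places were not counted, its level is uncertain. Insig2, which holds the sterol sensor SCAP in the endoplasmic reticulum, fell from 136, 129.8 and 135 CPM to 77.7, 53.03 and 49.1 CPM in control cells and was at 275, 279 and 274 CPM static and 272, 264 and 275 CPM under FFSS in DKO cells, with an interaction of 1.13 ± 0.18 (adjusted p = 0.00726). Slc40a1, the iron exporter ferroportin, had an interaction of 1.01 ± 0.18 (adjusted p = 0.0102), and Ppp1r3b, which targets protein phosphatase 1 to glycogen, one of 2.15 ± 0.42 (adjusted p = 0.0278). Ppp1r3b was at 8.12, 2.39 and 2.57 CPM in control FFSS libraries, replicate 1 being the highest, and between 83.3 and 109 CPM in DKO libraries, and 10 alternatives did not call it. Msi1, an RNA-binding translational regulator, had 1.76 ± 0.33 (adjusted p = 0.0219), and Plekho1, which binds casein kinase 2, 1.14 ± 0.18 (adjusted p = 0.00795). Msi1 and Slc40a1 were each not called in 9 of the 22 alternatives. Rcor2, a subunit of CoREST repressor complexes, fell from 339.7, 306 and 321 CPM to 119.97, 47.7 and 56.7 CPM in control cells, against 165, 156 and 179.7 CPM and 132, 139 and 131 CPM in DKO cells (interaction 1.79 ± 0.40, adjusted p = 0.0448), and 12 alternatives did not call it.

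The control log2 change of the 40 lost genes that fell ran from −3.13 to −0.85 and their DKO change from −0.61 to 0.21. Dok5, an adaptor of receptor tyrosine kinases, went from 6.55, 5.94 and 6.95 CPM to 2.93, 0.684 and 0.644 CPM in control cells, with control FFSS replicate 1 the highest, and was at 24.4, 21.2 and 26.5 CPM static and 22.2, 20.5 and 21.3 CPM under FFSS in DKO cells, with an interaction of 2.03 ± 0.46 (adjusted p = 0.0390) that 13 alternatives did not call. Nat8l, which makes N-acetylaspartate, went from 42.4, 44.4 and 42.1 CPM to 14.95, 7.37 and 8.57 CPM, against 6.82, 6.64 and 8.78 CPM and 5.36, 5.83 and 5.43 CPM in DKO cells (interaction 1.64 ± 0.31, adjusted p = 0.0149). The other lost genes that fell included Eepd1, Zfp524, Rasgef1a, Lmx1b, Cd300lb, Igdcc4, Rgs8, Gm4524, AW011738, Zfp618, Afap1l2, Fam131a, 2310030G06Rik, Ttc7b, Fam59a, Leprel1, Golga7b, Efr3b, Rufy4 and those at the limits named above. Of all 97 genes, 20 were called in every alternative, and Eepd1 (1.46), Zfp524 (1.23), Cd300lb (1.37) and Rgs8 (1.52) were among them.

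The lost genes that rose in control cells included Pde4b, Flrt2 and Sema7a. Of 56 axon guidance genes tested, 2 were interaction genes, Sema7a and Robo1, which fell (3.57%, against 0.651% of all genes). Of 32 integrin and focal adhesion genes, 1 was, Itga2b (3.1%). Without control FFSS replicate 1 these counts were 12 (21.4%) and 3 (9.4%), against 7.6% of all genes. Pde4b, at chr4:101760148-102279864 on the plus strand, encodes an enzyme that degrades cAMP, the second messenger of parathyroid hormone. It was at 9.94, 11.4 and 11.4 CPM in control static and 25.3, 25.9 and 26.9 CPM in control FFSS libraries, so the groups were apart with little spread. DKO libraries were at 26.9, 31.5 and 27.00 CPM static and 27.1, 28.1 and 28.6 CPM under FFSS, close to or above the control FFSS level in every library. Its log2 change was 1.25 in control and −0.03 in DKO cells, with an interaction of −1.28 ± 0.12 (adjusted p = 0.000204). Flrt2, an adhesion protein with leucine-rich repeats that binds UNC5 receptors, had the same adjusted p. Its control libraries went from 45.9, 46.6 and 45.96 CPM to 87.2, 79.5 and 89.7 CPM and its DKO libraries from 54.8, 55.5 and 51.2 CPM to 45.7, 47.3 and 50.2 CPM. Its interaction was −1.06 ± 0.09 (adjusted p = 0.000204), and it ranged from −1.17 to −1.03 over the 22 alternatives, all of which called it.

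Sema7a, a membrane-anchored semaphorin that binds integrins, rose from 10.4, 12.4 and 13.95 CPM to 37.1, 61.6 and 49.6 CPM in control cells. DKO libraries were at 51.1, 58.2 and 56.3 CPM static and 67.8, 63.9 and 62.4 CPM under FFSS, so that DKO cells at rest were within the range of control cells under FFSS (interaction −1.78 ± 0.22, adjusted p = 0.00161). Tnfsf11, which encodes RANKL, the main osteoclast differentiation factor, was at 1.06, 0.833 and 1.11 CPM in control static and 3.70, 3.08 and 3.42 CPM in control FFSS libraries. All 6 DKO libraries, between 11.2 and 16.7 CPM, were above every control library, and the interaction was −1.71 ± 0.24 (adjusted p = 0.00236). The opposite arrangement was seen for Pcdh19, a protocadherin, and Phf15, a subunit of a histone acetyltransferase complex. Pcdh19 rose from 24.6, 27.1 and 24.9 CPM to 46.96, 67.7 and 65.3 CPM in control cells and stayed between 18.7 and 21.5 CPM in DKO cells (interaction −1.18 ± 0.17, adjusted p = 0.00215). Phf15 rose from 21.99, 23.1 and 19.95 CPM to 36.1, 40.5 and 52.98 CPM in control cells and stayed between 8.33 and 9.82 CPM in DKO cells (interaction −1.11 ± 0.19, adjusted p = 0.00726).

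Closer to the threshold were Fosb, a subunit of AP-1, Itga2b, an integrin alpha chain, and Ifih1, the double-stranded RNA sensor MDA5. Their interactions were −1.13 ± 0.29 (adjusted p = 0.0434), −1.24 ± 0.31 (adjusted p = 0.0442) and −1.30 ± 0.33 (adjusted p = 0.0469). Each was not called in 14 or 15 of the 22 alternatives. Fosb was at 8.43, 13.3 and 11.3 CPM in the control FFSS libraries against 4.33, 4.48 and 4.42 CPM in the static ones. Ifih1 was at 9.92, 20.8 and 16.4 CPM in the control FFSS libraries, with replicate 1 lowest, against 7.51, 5.47 and 7.63 CPM in the static ones. In DKO cells Ifih1 was at 8.52, 7.46 and 7.05 CPM static and 6.41, 7.73 and 7.27 CPM under FFSS, so these groups overlapped.

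Vcan, Hs3st3a1, Ndst3 and Sirpa were also among the lost genes that rose. Vcan, the matrix proteoglycan versican, went from 2.59, 2.60 and 2.79 CPM to 4.32, 4.88 and 5.74 CPM in control cells and was at 22.6, 28.3 and 25.5 CPM static and 24.7, 24.1 and 21.5 CPM under FFSS in DKO cells, above every control library (interaction −1.02 ± 0.18, adjusted p = 0.00856). Hs3st3a1 and Ndst3, which sulphate heparan sulphate, had interactions of −1.27 ± 0.32 (adjusted p = 0.0452) and −2.13 ± 0.47 (adjusted p = 0.0261), at mean levels of at most 2.09 CPM in any group. Sirpa, the receptor of CD47, went from 1.06, 0.833 and 0.790 CPM to 1.64, 2.73 and 1.44 CPM in control cells, against 35.9, 35.3 and 33.2 CPM and 36.2, 36.1 and 36.7 CPM in DKO cells (interaction −1.05 ± 0.26, adjusted p = 0.0420). Sirpa was not called in 13 of the 22 alternatives, Hs3st3a1 in 15 and Ndst3 in 11. The control log2 change of the 27 lost genes that rose ran from 0.86 to 2.64 and their DKO change from −0.53 to 0.52. The remaining ones were Klhdc8a, Gm14378, Vsig10l, Pctp, Gm14230, Gcnt2, 0610040B10Rik, Mtmr7, Podnl1, Zfp13 and 2610524H06Rik, besides those at the limits named above.

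**Figure D3:**
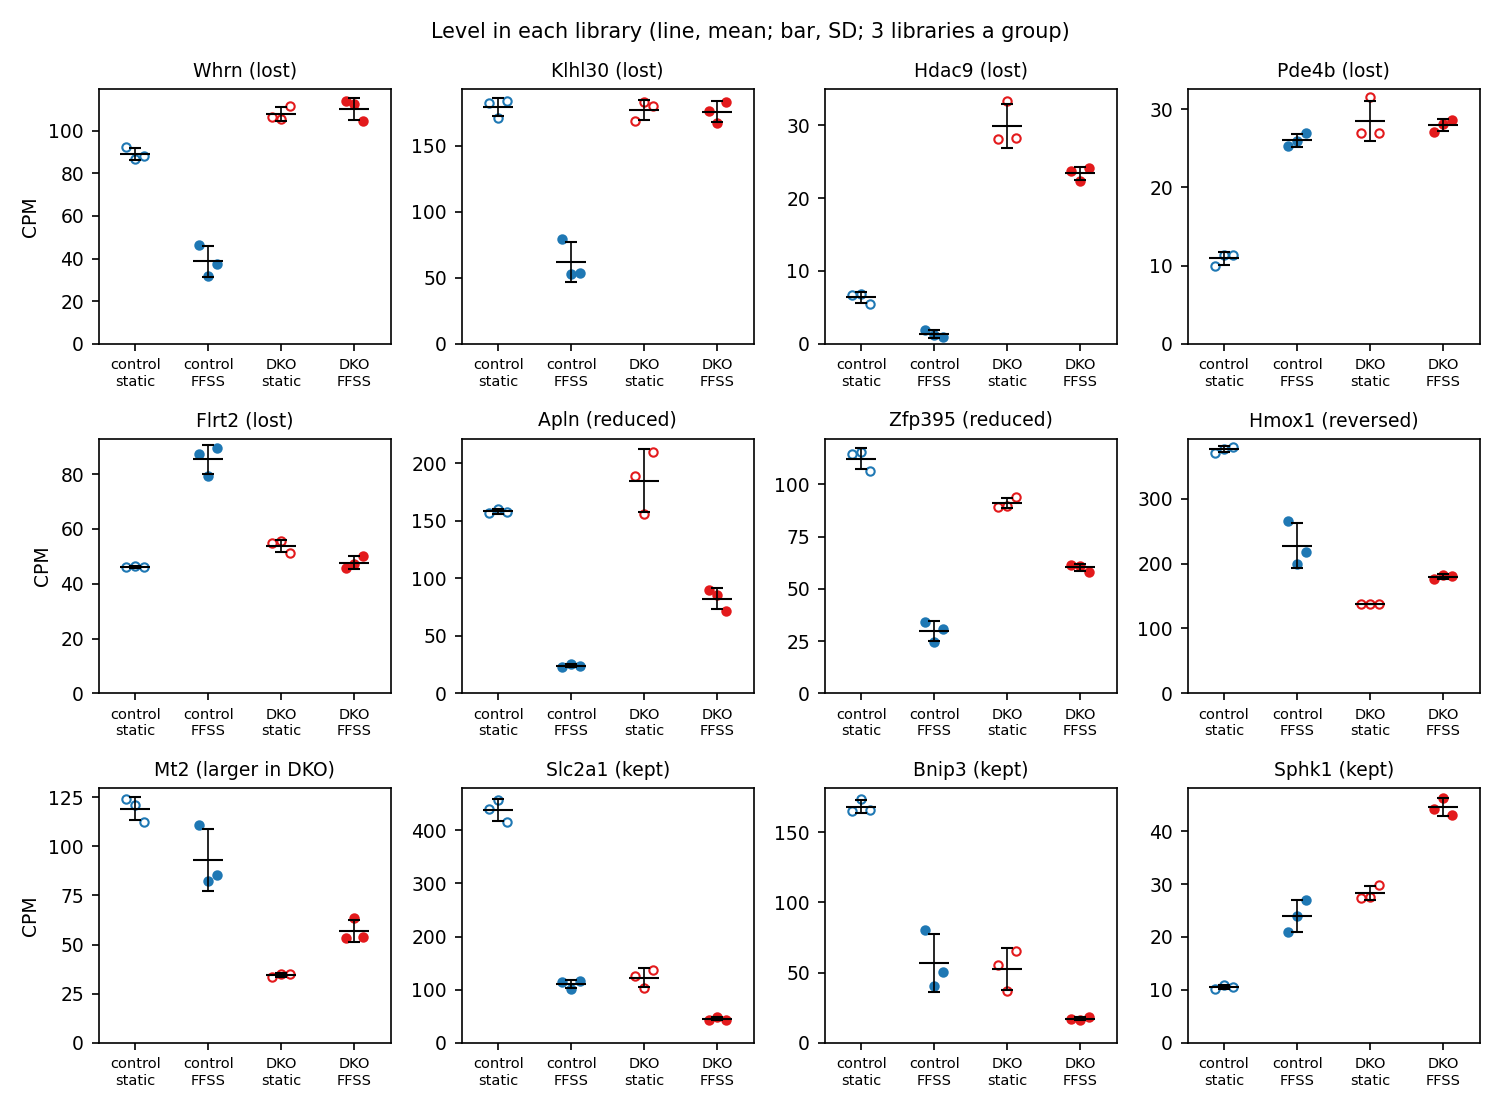
CPM in each of the 12 libraries for 12 genes from the 5 classes, with open points for static and filled points for FFSS libraries, control in blue and DKO in red; lines are means and bars SDs of 3 libraries. Whrn, Klhl30 and Flrt2 have DKO changes between −0.17 and 0.03 on the log2 scale, Apln and Zfp395 fall less in DKO cells, and Hmox1 and Mt2 move in opposite directions in the 2 genotypes.

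Of the 12 reduced genes, the 10 that fell included 8 that had an adjusted p below 0.05 in DKO cells, where 130 of all genes tested did (0.872%), and 0 of the 2 that rose had one in edgeR. Apln, at chrX:45378323-45388030 on the minus strand, encodes apelin, a secreted peptide that acts on vessels and bone cells. It fell from 156, 159.97 and 158 CPM to 22.6, 25.5 and 23.7 CPM in control cells. The DKO libraries fell from 189, 155 and 209 CPM to 89.6, 85.6 and 71.7 CPM, so both genotypes separated static from FFSS. The log2 changes were −2.72 and −1.17, with an interaction of 1.56 ± 0.15 (adjusted p = 0.000211). In CPM the fall was 134 in control and 102 in DKO cells, so the share retained was larger on the linear scale. Zfp395, a zinc finger protein, fell from 115, 116 and 107 CPM to 34.3, 24.5 and 30.8 CPM in control and from 89.3, 89.9 and 93.99 CPM to 61.7, 60.97 and 58.2 CPM in DKO cells (interaction 1.32 ± 0.13, adjusted p = 0.000211).

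Ak4, a mitochondrial adenylate kinase, and Ankrd37, an ankyrin repeat protein, are HIF targets, and were among the genes that fell most in both genotypes. Ak4 fell from 76.2, 76.1 and 64.2 CPM to 13.5, 11.1 and 10.4 CPM in control cells and from 34.04, 27.99 and 34.7 CPM to 10.01, 10.6 and 11.02 CPM in DKO cells, so that the FFSS levels of the genotypes were alike while the static levels differed. Its interaction was 1.01 ± 0.16 (adjusted p = 0.00454). Ankrd37 fell from 34.7, 30.4 and 35.1 CPM to 1.75, 0.977 and 0.644 CPM and from 8.80, 8.07 and 11.9 CPM to 1.22, 0.952 and 1.23 CPM, with log2 changes of −4.89 and −3.07 and an interaction of 1.82 ± 0.39 (adjusted p = 0.0221). Its exons overlap Lrp2bp and Ufsp2, and reads in shared exons were not counted. Narf, which binds prelamin A and whose exons overlap Foxk2, went from 48.5, 47.7 and 49.4 CPM to 12.02, 8.89 and 8.81 CPM in control and from 52.7, 53.9 and 57.2 CPM to 23.00, 21.1 and 23.4 CPM in DKO cells (interaction 1.02 ± 0.14, adjusted p = 0.00178). Ak4 and Narf lay just past the 2-fold limit, and 9 and 8 of the 22 alternatives did not call them. Ankrd37 was also not called in 8 of the 22.

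Glycogen metabolism was represented by Ppp1r3c, a glycogen-targeting subunit of protein phosphatase 1, and Epm2a, the glycogen phosphatase laforin, besides the lost gene Ppp1r3b. These 3 genes were grouped after their values had been seen. Ppp1r3c fell from 22.4, 21.98 and 23.5 CPM to 8.48, 4.49 and 5.10 CPM in control and was at 56.4, 62.9 and 64.4 CPM static and 41.5, 38.4 and 37.3 CPM under FFSS in DKO cells, where its adjusted p was 0.0522 (interaction 1.26 ± 0.22, adjusted p = 0.00938). The difference between the mean levels in CPM was larger in DKO cells, −22.2 against −16.6, with a higher static level. Epm2a had an interaction of 1.52 ± 0.33 (adjusted p = 0.0238) at levels below 4 CPM. Of the remaining reduced genes that fell, Adamtsl1, a matrix glycoprotein of the ADAMTS family without protease activity, had an interaction of 1.85 ± 0.37 (adjusted p = 0.0254), Rtkn2 of 1.36 ± 0.21 (adjusted p = 0.00452), and Cyp26b1, which degrades retinoic acid, of 1.08 ± 0.21 (adjusted p = 0.0152). Adamtsl1 was not called in 10 of the 22 alternatives. The 2 reduced genes that rose were Prkg2, the cGMP-dependent protein kinase II, and 2010002N04Rik. Prkg2 rose from 66.1, 62.6 and 64.9 CPM to 129, 215 and 173 CPM in control cells and was at 126, 132 and 134 CPM static and 171, 171 and 164 CPM under FFSS in DKO cells, where its adjusted p was 0.245 (interaction −1.05 ± 0.19, adjusted p = 0.0131). The interaction of 2010002N04Rik was −1.10 ± 0.19 (adjusted p = 0.00843).

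Of the 6 kept genes that fell, Slc2a1, Bnip3, Ddit4 and Kdm3a are known HIF targets. Enrichment of HIF targets among the kept genes was not tested. Slc2a1, the glucose transporter GLUT1, at chr4:118781316-118809935 on the plus strand, fell from 441, 457 and 416 CPM to 114, 101 and 115 CPM in control and from 126, 103 and 138 CPM to 43.6, 48.7 and 43.7 CPM in DKO cells. Its log2 changes were −1.99 and −1.43, and the static DKO libraries were already near the FFSS control libraries. Its interaction of 0.56 ± 0.13 (adjusted p = 0.0341) had an adjusted p below 0.05 but was under 2-fold, so kept does not mean equal. The same held for Kdm3a, a histone H3 lysine demethylase, with 0.75 ± 0.07 (adjusted p = 0.000211), and Nampt, which makes a precursor of NAD, with 0.64 ± 0.07 (adjusted p = 0.000482). Their retained shares of 0.30 and 0.37 were below those of the reduced genes Narf (0.56), Ak4 (0.61) and Ankrd37 (0.63), since the class rests on the size of the interaction and not on the share. Kdm3a fell from 209.97, 215 and 196 CPM to 99.9, 96.2 and 101 CPM in control and from 103, 106 and 103 CPM to 86.5, 80.4 and 83.1 CPM in DKO cells.

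Bnip3, a mitophagy receptor, had a log2 change of −1.56 in control and −1.61 in DKO cells, and its interaction of −0.05 had a 95% interval from −0.86 to 0.76. Control libraries went from 165, 173 and 166 CPM to 80.3, 40.7 and 50.1 CPM, and DKO libraries from 55.4, 36.7 and 65.5 CPM to 16.9, 16.5 and 18.2 CPM. The groups of each genotype did not overlap. Pfkl, a phosphofructokinase subunit, changed by −1.63 and −1.34, with an interval of the interaction from −0.15 to 0.71, and Ddit4, an inhibitor of mTORC1, by −1.67 and −1.19, with one from −0.03 to 0.99. Only Ddit4 left the class without control FFSS replicate 1. The 2 kept genes that rose were Sphk1 and Osmr. Sphk1, a sphingosine kinase, went from 10.1, 10.8 and 10.5 CPM to 20.9, 24.02 and 26.9 CPM in control and from 27.4, 27.5 and 29.8 CPM to 44.1, 46.3 and 43.1 CPM in DKO cells (interaction −0.53 ± 0.13, adjusted p = 0.0341). Osmr, the oncostatin M receptor, went from 28.97, 28.9 and 28.7 CPM to 47.6, 71.6 and 70.02 CPM and from 32.1, 35.3 and 35.4 CPM to 59.7, 61.1 and 60.3 CPM (interaction −0.31 ± 0.17, adjusted p = 0.276).

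As several kept and reduced genes are HIF targets, their promoters were searched for the core of the HIF response element, ACGTG, on both strands. The windows run from 250 bases before to 50 bases after the start and were matched by symbol in the RefSeq table (GRCm38.p6), which held 9647 of the genes tested. The core occurred in 28.8% of these windows, in 4 of the 6 kept genes that fell (Bnip3, Ddit4, Nampt and Slc2a1), in 4 of 7 reduced genes that fell (Ak4, Ankrd37, Epm2a and Ppp1r3c), in 6 of 27 lost genes that fell, in 6 of 20 lost genes that rose, in 3 of 7 reversed genes that rose, in 1 of 3 reversed genes that fell and in 1 of 2 kept genes that rose. The named MEF2 element was found in 2.11% of all windows and in 1 of 27 lost genes that fell (Rcor2) and 1 of 3 reversed genes that fell (Erg). Another 4 motifs were searched on both strands. The heat shock element GAANNTTC was found in 6.98% of all windows, in 2 of 6 kept genes that fell (Kdm3a and Pfkl) and in 1 of 27 lost genes that fell (Hspa1b). The AP-1 motif TGANTCA was found in 6.34% of all windows, in 2 of 27 lost genes that fell, 2 of 3 reversed genes that fell, 1 of 7 reversed genes that rose, 1 of 6 kept genes that fell and 2 of 2 kept genes that rose. The TEAD motif GGAATG was found in 14.6% of all windows, in 5 of 27 lost genes that fell, 2 of 20 lost genes that rose, 2 of 3 reversed genes that fell, 3 of 7 reversed genes that rose and 1 of 2 kept genes that rose, and the CArG box of SRF in 1.66% of all windows and in 1 of 27 lost genes that fell (Robo1). Of the lost, reduced, reversed and kept classes, any not named for a motif had 0 matches in its windows. The TEAD motif, for example, was in 0 of 7 reduced and 0 of 6 kept genes that fell. The 2 reduced genes that rose had no window. A match describes letters and not a bound site. The 250 bases before the start are shown for 2 kept genes, Bnip3 (chr7:138909507-138909756 on the minus strand) and Slc2a1 (chr4:119108495-119108744 on the plus strand), and 3 reduced genes, Ankrd37 (chr8:45999851-46000100 on the minus strand), Ppp1r3c (chr19:36736605-36736854 on the minus strand) and Apln (chrX:48034854-48035103 on the minus strand), as examples of these classes. Capitals mark ACGTG or its reverse complement, and Apln has no match.
Bnip3: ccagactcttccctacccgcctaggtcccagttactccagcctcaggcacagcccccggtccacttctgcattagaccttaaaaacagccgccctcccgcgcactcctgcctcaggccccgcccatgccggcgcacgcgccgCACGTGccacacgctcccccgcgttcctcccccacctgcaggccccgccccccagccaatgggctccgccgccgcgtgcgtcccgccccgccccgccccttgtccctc
Slc2a1: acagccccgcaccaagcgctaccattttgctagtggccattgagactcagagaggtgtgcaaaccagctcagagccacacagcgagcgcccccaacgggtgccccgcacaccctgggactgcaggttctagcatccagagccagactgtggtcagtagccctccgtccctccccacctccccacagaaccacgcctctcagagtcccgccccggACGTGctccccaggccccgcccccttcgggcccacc
Ankrd37: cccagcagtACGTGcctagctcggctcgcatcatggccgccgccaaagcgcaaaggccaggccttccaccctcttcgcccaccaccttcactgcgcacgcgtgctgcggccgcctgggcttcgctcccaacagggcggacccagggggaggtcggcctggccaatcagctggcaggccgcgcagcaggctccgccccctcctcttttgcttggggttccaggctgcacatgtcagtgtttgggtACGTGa
Ppp1r3c: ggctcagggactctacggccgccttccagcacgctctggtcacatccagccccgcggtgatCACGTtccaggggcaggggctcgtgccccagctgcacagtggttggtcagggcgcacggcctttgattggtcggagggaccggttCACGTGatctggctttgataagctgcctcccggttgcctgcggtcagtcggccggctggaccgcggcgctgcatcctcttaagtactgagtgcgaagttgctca
Apln: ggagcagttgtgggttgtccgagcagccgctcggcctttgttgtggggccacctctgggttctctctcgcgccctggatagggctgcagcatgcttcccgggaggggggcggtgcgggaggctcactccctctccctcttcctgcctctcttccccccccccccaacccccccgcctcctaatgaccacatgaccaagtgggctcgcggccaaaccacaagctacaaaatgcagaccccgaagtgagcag
In Bnip3 and Ppp1r3c a palindrome places the core on both strands, with its first base 108 and 104 bases before the start, and Ppp1r3c has another match 189 bases before it. The match in Slc2a1 lies 36 bases before the start, and those in Ankrd37 lie 241 and 6 bases before it.

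The DKO log2 change of the reversed genes ran from −1.28 to 0.47, with a median of −0.41 for those that rose and 0.27 for those that fell in control cells. Of the 16 reversed genes, 1 had an adjusted p below 0.05 in DKO cells, and 5 had a 95% interval of the DKO change that left out 0. That 1 gene was Hmox1, which encodes the haem-degrading enzyme heme oxygenase 1, at chr8:77617490-77624495 on the plus strand. It fell from 371, 378 and 380.5 CPM to 266, 200.3 and 217 CPM in control cells and rose from 138, 138 and 138 CPM to 176, 183 and 182 CPM in DKO cells. Neither pair of groups overlapped, and the FFSS level in DKO cells was below that in control cells. The DKO change was 0.38 (adjusted p = 0.0432) and the interaction 1.11 ± 0.11 (adjusted p = 0.000241).

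Mt2, a metallothionein that binds zinc and copper, was classed as larger in DKO. Each of the 2 genes in this class changed in opposite directions in the 2 genotypes. It was at 124, 121 and 112 CPM in control static and 111, 82.5 and 85.6 CPM in control FFSS libraries, and rose from 33.5, 35.2 and 34.9 CPM to 53.5, 63.6 and 53.7 CPM in DKO cells. Its changes were −0.36 (adjusted p = 0.0145) and 0.72 (adjusted p = 0.00734), with an interaction of 1.08 ± 0.15 (adjusted p = 0.00172). The other gene of this class, Calcrl, was below 0.6 CPM in every library, with log2 changes of 1.24 in control and −1.50 in DKO cells. Of the remaining reversed genes that fell in control cells, Pkp1, a desmosomal plakophilin, went from 4.97, 4.17 and 5.11 CPM to 2.57, 1.12 and 1.04 CPM in control and from 5.39, 5.76 and 6.72 CPM to 7.35, 8.62 and 8.78 CPM in DKO cells (interaction 2.06 ± 0.33, adjusted p = 0.00514). Its DKO groups did not overlap, yet the DKO change had an adjusted p of 0.349. Erg, an ETS transcription factor, had a DKO change of 0.23 (95% interval 0.01 to 0.46) and an interaction of 1.02 ± 0.18 (adjusted p = 0.00837), which 6 of the 22 alternatives did not call. The interactions of Wdr54 and Adam19, a membrane metalloprotease, were 1.02 ± 0.22 (adjusted p = 0.0221) and 1.28 ± 0.28 (adjusted p = 0.0283), and 12 and 11 of the 22 alternatives did not call them.

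Of the reversed genes that rose in control cells, Abca3, a lipid transporter, had the smallest p among those named, with −1.79 ± 0.33 (adjusted p = 0.0107). It was at 1.48, 1.35 and 2.05 CPM in control static and 2.98, 4.74 and 5.001 CPM in control FFSS libraries, against 4.34, 6.59 and 6.17 CPM in DKO static and 4.98, 3.93 and 3.97 CPM in DKO FFSS libraries, where the groups overlapped. Pxdn, a peroxidase that crosslinks collagen IV, went from 26.9, 26.8 and 29.1 CPM to 29.1, 49.2 and 46.3 CPM in control cells, its first FFSS value being that of replicate 1. In DKO cells it went from 35.1, 36.1 and 33.8 CPM to 26.9, 24.6 and 26.7 CPM, with no overlap, and its interaction was −1.02 ± 0.21 (adjusted p = 0.0221), which 13 of the 22 alternatives did not call. Gbp2, an interferon-induced GTPase, had an interaction of −1.45 ± 0.35 (adjusted p = 0.0386), which 13 alternatives did not call. Without control FFSS replicate 1 Gbp2, Elmo3, Pkp1, Erg and Adam19 moved to the lost class. Wdr54, at 0.98 without that library, fell short of the 2-fold limit. Elmo3, a regulator of Rac, 2610020C07Rik and Klhdc8b had interactions of −1.05, −1.25 and −1.40 (adjusted p = 0.0193, 0.0243 and 0.0470). Between 7 and 15 of the 22 alternatives did not call these 3 genes. The other reversed genes that rose, BC028777, Gm14168, Mpp4, Dnase1 and Mir31, averaged at most 0.98 log2 CPM.

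The level of a gene in DKO cells at rest differed by class. All 3 DKO static libraries were above all 3 control FFSS libraries for 28 of the 40 lost genes that fell and for 10 of the 10 reduced genes that fell, compared with 29.1% of all genes tested. They were all below for 6 of the 40 lost genes that fell, where 29.9% of all genes were. For the 27 lost genes that rose, the DKO static libraries were above in 10, below in 11 and overlapping in 6. The control FFSS level took part in choosing these genes, so these counts are descriptive. Measured in CPM and not on the log2 scale, the change was larger in DKO than in control cells for 8 of the 97 genes, 5 of them in the same direction as in control cells. The mean of Adm differed by −2.89 CPM between control FFSS and static libraries, and by −6.30 CPM between the DKO ones (adjusted p of the DKO change = 0.161), and that of Hdac9 by −5.001 and −6.51 CPM.

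The 97 genes were also compared with 29 lists of pathways and cell functions. Of 691 different genes tested in any list, 16 (2.32%) were interaction genes, while 81 of the 97 were in no list. HIF targets outside glycolysis held 4 interaction genes among 28 tested (Adm, Ak4, Ankrd37 and Bhlhe40), all positive, against 0.651% of all genes. They also held 3 kept genes (Bnip3, Ddit4 and Kdm3a), where 8 of the 14904 genes tested were kept. A kept gene had to be called in control cells. Of these 28 genes, 13 fell in control cells, against 1.97% of all genes, and 5 in DKO cells, where 0.0872% of all genes were called in either direction, with median log2 changes of −0.91 and −0.31. The interaction was called for 10 of them without control FFSS replicate 1, 9 positive and 1 negative (35.7%, against 7.6% of all genes). Of the 21 glycolysis and lactate genes 0 were called in the interaction by edgeR, DESeq2 or limma-voom, and 1 with library weights. The count of 0 is near the 0.651% of all genes called by edgeR. Without a fold limit 3 of the 21 had an adjusted p below 0.05 in edgeR, all positive, against 3.97% of all genes in either direction. An unadjusted p below 0.05 in edgeR was found for 9 of the 21, against 23.8% of all genes. The median log2 changes were −0.83 in control and −0.27 in DKO cells. When control FFSS replicate 1 was left out, 4 glycolysis and lactate genes were called (19.0%), against 7.6% of all genes, all positive and classed as lost. An unadjusted p below 0.05 in edgeR was then found for 17 of the 21, against 45.1% of all genes. Egln3, a prolyl hydroxylase that marks HIF for degradation, had an interaction of 1.03 ± 0.36 (adjusted p = 0.135), and Ndrg1, a stress-responsive HIF target, of 0.94 ± 0.19 (adjusted p = 0.0204). Ldha, which makes lactate, had an interaction of 0.72 ± 0.27 (adjusted p = 0.143). Over all genes tested the medians were 0.01 in control and −0.01 in DKO cells.

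Among genes that rose in control cells, 9 of 32 interferon-stimulated genes were called in control cells, against 3.96% of all genes tested. In DKO cells 0 were called by edgeR, DESeq2 or limma-voom, near the 0.0872% of all genes called there in either direction. An unadjusted p below 0.05 in edgeR was found for 1 of the 32, against 13.5% of all genes. The median changes were 0.76 and −0.09. The interaction was called by edgeR for 2 of them, Gbp2 and Ifih1, against 0.651% of all genes. DESeq2 called 8 (1.17% of all genes), limma-voom 0 (0.819%) and limma-voom with library weights 15 (6.78%). Without control FFSS replicate 1 edgeR called 15, all negative, against 7.6% of all genes. Examples without that library were Oasl1 (−2.11, adjusted p = 7.98e-08), an antiviral OAS-like protein, and Ddx58 (−1.08, adjusted p = 3.03e-10), the RNA sensor RIG-I. With all libraries their interactions were −1.72 ± 0.72 (adjusted p = 0.186) and −0.86 ± 0.24 (adjusted p = 0.0726). Of 30 chemokine, IL-6 family and NF-kB genes, 10 rose in control cells, against 3.96% of all genes, while 0 were called in DKO cells, where 0.0872% of all genes were called in either direction and 6 of the 30 had an unadjusted p below 0.05 (13.5% of all genes). DESeq2 called 1 there (0.107% of all genes). In the interaction 0 were called in edgeR (0.651% of all genes) and limma-voom (0.819%), 3 in DESeq2 (1.17%) and 11 in limma-voom with library weights (6.78%), and 15 had an unadjusted p below 0.05 in edgeR (23.8%). Without control FFSS replicate 1, 12 were called, all negative, against 7.6% of all genes. Csf1, a macrophage growth factor that osteoclasts need, had an interaction of −1.19 ± 0.42 (adjusted p = 0.136) with all libraries and of −1.53 (adjusted p = 1.92e-16) without that one.

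The counts of bone matrix and lineage genes depended on that library. Of 26 osteocyte and mineralisation genes, 0 were called in the interaction by edgeR, DESeq2 or limma-voom with all libraries (against 0.651%, 1.17% and 0.819% of all genes), 12 by limma-voom with library weights, against 6.78%, and 14 without control FFSS replicate 1, all positive, against 7.6%. An unadjusted p below 0.05 in edgeR was found for 6 of the 26, near the 23.8% of all genes. Phospho1, a phosphatase of matrix vesicles, went from an interaction of 1.49 ± 0.57 (adjusted p = 0.165) to 2.32 (adjusted p = 4.71e-11), and Ibsp, bone sialoprotein, from 1.10 ± 0.87 (adjusted p = 0.472) to 2.52 (adjusted p = 5.3e-17). Of 21 osteoblast lineage regulators, 0 were called by the same 3 tools with all libraries (10 had an unadjusted p below 0.05 in edgeR, against 23.8% of all genes), 9 by limma-voom with library weights, against 6.78%, and 9 without that library, 8 positive and 1 negative, against 7.6%. Sp7, the osteoblast factor osterix, had 1.52 ± 0.53 (adjusted p = 0.139) and then 2.26 (adjusted p = 1.12e-18). The summed osteoblast and osteocyte markers ranged from 10657 to 31476 CPM over the control FFSS libraries and from 101880 to 106489 CPM over the DKO FFSS libraries. Sost, the sclerostin gene, was at 1.48, 2.14 and 12.4 CPM in control static and 11.4, 0.0977 and 2.28 CPM in control FFSS libraries, the lowest being 2 counts and under the floor of 3, against 2097, 2049 and 2042 CPM static and 1983, 1937 and 1741 CPM under FFSS in DKO cells, so its control response was measured at very low levels that overlapped. Dmp1, a matrix phosphoprotein of osteocytes, was at 27.5, 23.1 and 37.6 CPM in control static and 96.7, 15.7 and 15.7 CPM in control FFSS libraries, of which replicate 1 lay above and the other two below the static ones. In DKO cells it was between 553 and 613 CPM static and between 935 and 1074 CPM under FFSS, with no overlap. The interactions of Sost and Dmp1 were 0.11 ± 1.24 (adjusted p = 0.968) and 0.28 ± 0.87 (adjusted p = 0.875). With control FFSS replicate 1 left out they were 2.04 (adjusted p = 0.259) and 1.72 (adjusted p = 0.000425), so that Dmp1 was then called. It was then classed as reversed, since the log2 change against the static mean was 1.74 in control FFSS replicate 1 and −0.87 in each of the others. With all libraries its control and DKO changes were both positive, at 0.54 and 0.81. Also limma-voom with library weights called it (1.56, adjusted p = 0.0140). Of the 34 DNA replication and mitosis genes, 0 were called in the interaction by edgeR, with or without control FFSS replicate 1, or by DESeq2 or limma-voom, against 0.651% of all genes in edgeR with it and 7.6% without it, and 9 with it and 14 without it had an unadjusted p below 0.05 in edgeR, near the 23.8% and 45.1% of all genes.

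**Figure D4:**
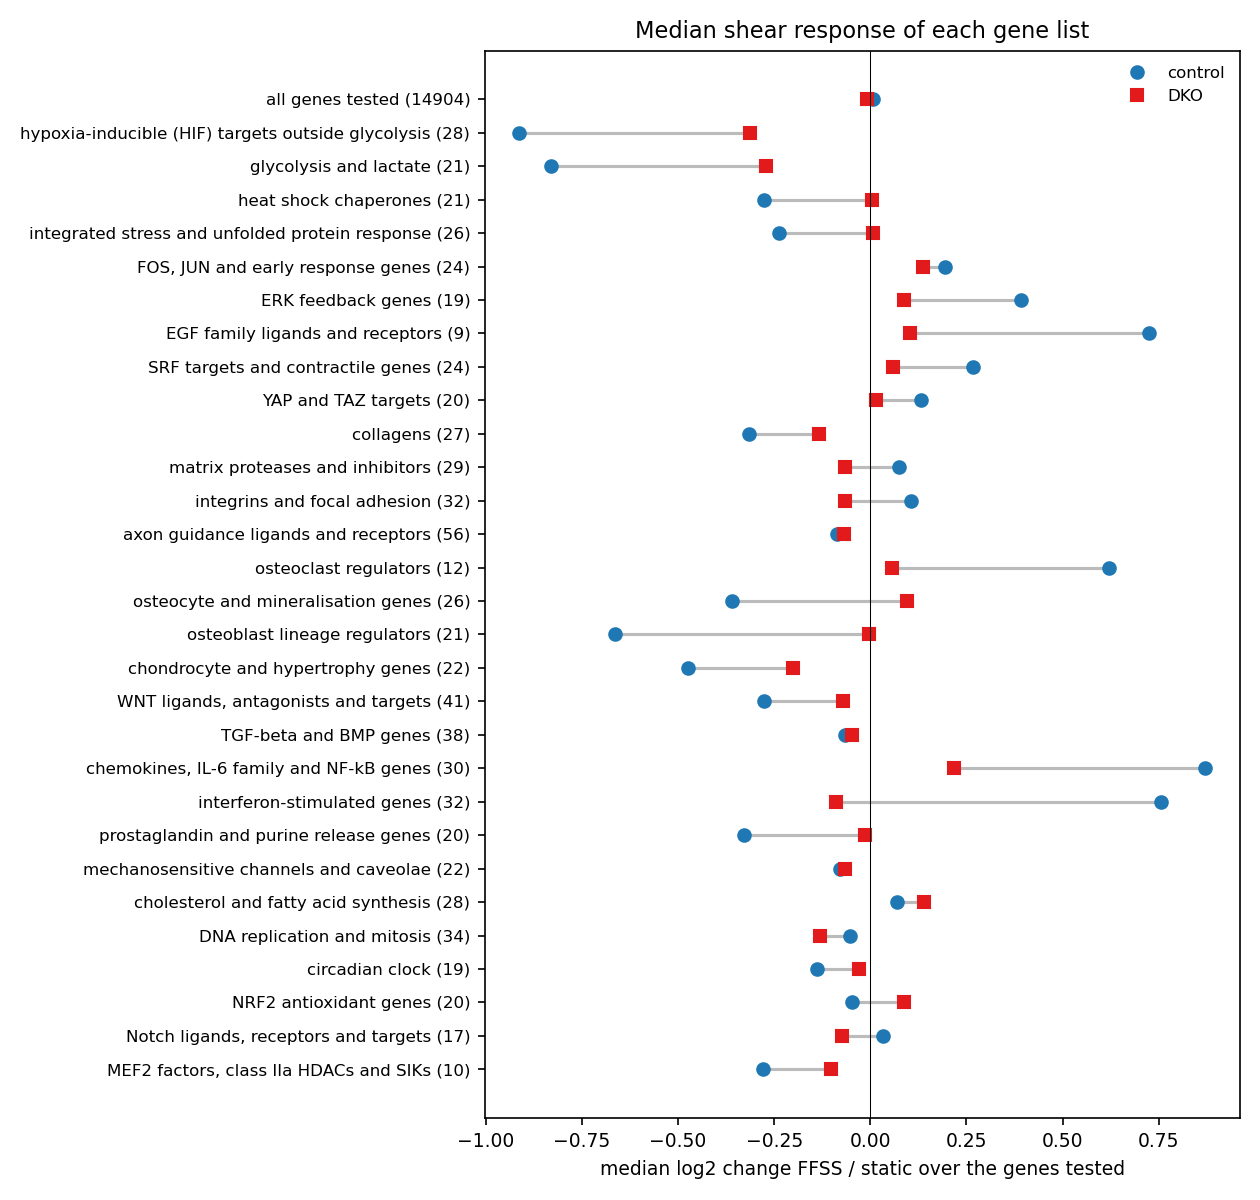
Median log2 change under FFSS in control (circles) and DKO cells (squares) for each of 29 gene lists and for all genes tested, with the number of genes tested in parentheses. HIF targets, glycolysis, interferon-stimulated and chemokine genes show the widest distances from 0 in control cells, and all DKO medians lie between −0.31 and 0.22.

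The number of interaction genes moved when any library was left out, and most without control FFSS replicate 1. Without control FFSS replicate 1, 95 of the 97 genes were still called, of 1133 in all, and all 97 kept their sign. Downweighting libraries by their own spread in limma-voom gave 1011 genes, 94 of them shared. Leaving out any 1 of the other 11 libraries gave between 41 and 59 genes. With the share of reads outside genes as a covariate 67 genes were called, 42 of them shared. Of the 97 genes, 20 were called in all 22 alternatives and 66 in at least 11.

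**Figure D5:**
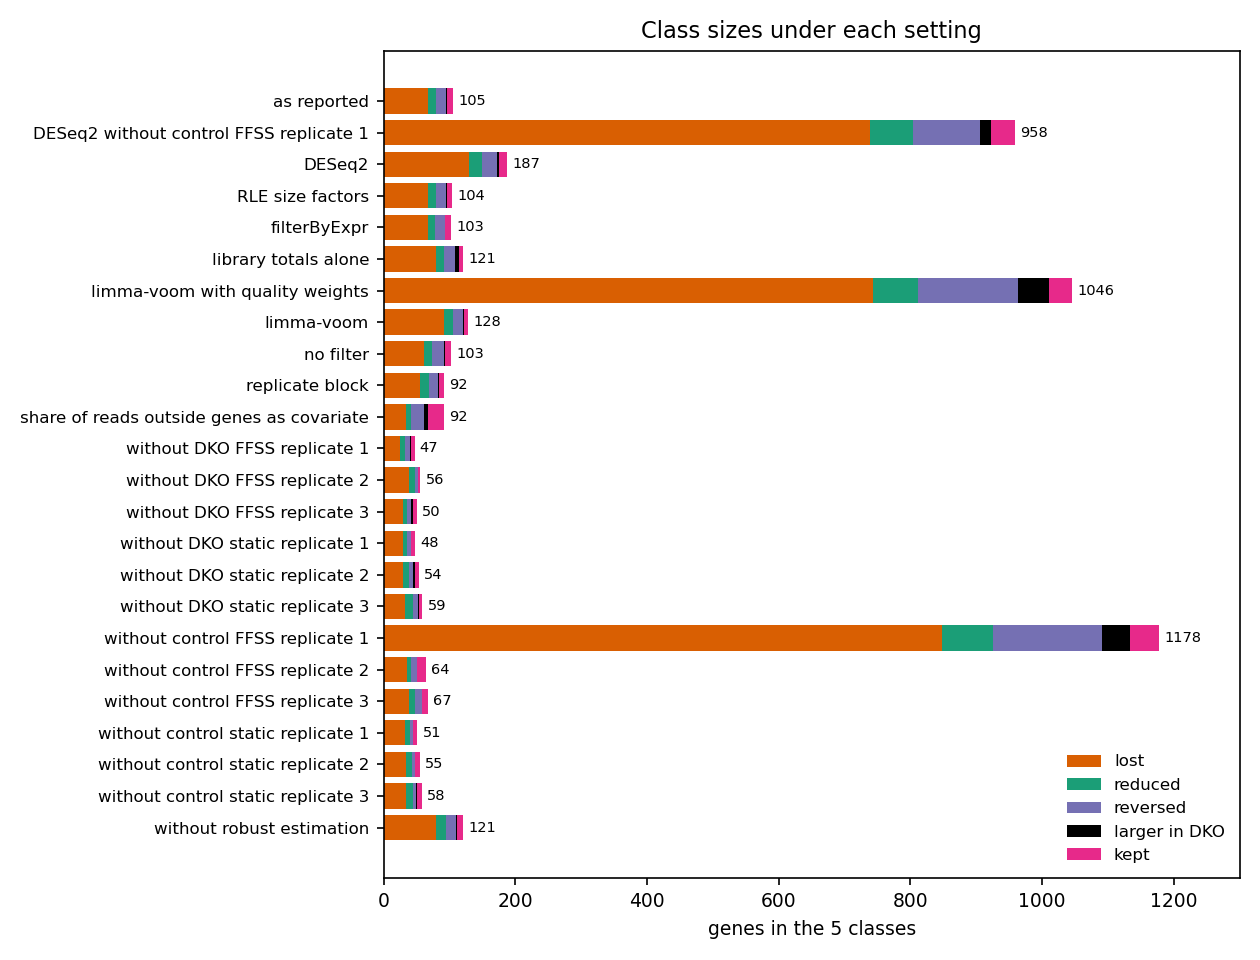
Number of genes in the lost, reduced, reversed, larger in DKO and kept classes as reported (105 in all) and under each alternative setting, as stacked bars with the total beside each bar. The settings that leave out or downweight control FFSS replicate 1 give 958 to 1178 genes, and lost is the largest class in every setting shown.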

How the data were processed

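The authors sequenced the libraries as short single-end reads on a BGISEQ-500, aligned them to mm9 using STAR and assigned them to Ensembl genes using HTSeq, and the submitters' processing notes also name edgeR. The deposited values are these raw counts, 1 file per library, for 37583 gene IDs. Per the file names, counting ignored strand, so reads in exons shared by overlapping genes were ambiguous and not counted, as were reads aligning to several places, and 23 of the 97 interaction genes overlap another gene. Lines that name no gene were left out of library totals. They hold the reads outside genes, from 5.10% to 10.04% of uniquely aligned reads.

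Groups were taken from the sample titles. A gene was kept when at most 1 library had no count, as the study did, leaving 14904, and a call needed a Benjamini-Hochberg adjusted p below 0.05 and more than a 2-fold change. The fit was edgeR 4.0.16 in R 4.3.3 (TMM, robust quasi-likelihood) on all 12 libraries as 4 groups, which share 1 estimate of the spread. All adjusted p are from that test unless another tool is named. Values after ± are standard errors for interactions and SDs for other means, CPM use TMM-scaled totals, and log2 CPM a prior count of 2. Intervals come from the fit and include the spread between libraries. The floor of 3 counts leaves that spread out, and PCR copies are not independent molecules. The script was checked on simulated data in which only the DKO FFSS group was changed. These data held no control response, no difference between the lines and no library that stood apart. The check therefore does not cover a library such as control FFSS replicate 1.

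The genes named are, for each class and direction, up to 6 with the smallest interaction p (kept genes: up to 5 by DKO p) with an average log2 CPM above 1, interaction genes in a list, and Hdac4, Hdac5, Sost and Dmp1. Other genes, among them Insig2, Ppp1r3b, Rcor2, Bnip3 and the list genes with no call, were named after their values were seen. The members and lists were chosen with earlier results of these data known. The alternatives were DESeq2 1.42.0, limma 3.58.1 voom with and without library weights, other scaling, filters and thresholds, a replicate block, the share of reads outside genes as a covariate, and leaving out each library. DESeq2 without control FFSS replicate 1 was added after seeing the data.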

Additional observations from a re-analysis of the deposited data

Results flagged for a closer look

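The FFSS response differed between the genotypes, by the interaction test itself, for 97 genes, and the genes given here, chosen by the naming rule, had an adjusted p below 0.05 and are listed by their interaction on the log2 scale. Other interaction genes stand in the report alone. Among genes that fell in control cells these were Adm (2.52), Hspa1b (2.31), Robo1 (2.24), Pkp1 (2.06), Hdac9 (1.86), Adamtsl1 (1.85), Ankrd37 (1.82), Apln (1.56), Klhl30 (1.52), Rtkn2 (1.36), Zfp395 (1.32), Adam19 (1.28), Ppp1r3c (1.26), Whrn (1.24), Bcar3 (1.22), Bhlhe40 (1.16), Fzd5 (1.16), Hmox1 (1.11), Dact1 (1.10), Mt2 (1.08), Ppp1r13l (1.03), Erg (1.02), Wdr54 (1.02), Narf (1.02) and Ak4 (1.01). Under 2-fold were Hdac5 (0.85), Kdm3a (0.75), Nampt (0.64) and Slc2a1 (0.56). Among genes that rose in control cells these were Abca3 (−1.79), Sema7a (−1.78), Tnfsf11 (−1.71), Gbp2 (−1.45), Klhdc8b (−1.40), Ifih1 (−1.30), Pde4b (−1.28), 2610020C07Rik (−1.25), Itga2b (−1.24), Pcdh19 (−1.18), Fosb (−1.13), Phf15 (−1.11), 2010002N04Rik (−1.10), Flrt2 (−1.06), Prkg2 (−1.05), Elmo3 (−1.05), Pxdn (−1.02) and, under 2-fold, Sphk1 (−0.53).

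The reads outside annotated genes, which are outside the counts compared above, averaged 8.37% in control FFSS and 8.19% in DKO FFSS libraries, above the 5.14% and 7.11% of the static groups. Control FFSS replicate 1, at 5.87%, was below every DKO library.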

How the results depend on the processing

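The 97 interaction genes (56 positive, 41 negative) and the class sizes moved with several choices, and the causes were not tested. Leaving out 1 library at a time gave 41 to 1133 genes (29 to 512 positive, 11 to 621 negative), with 25 to 848 lost, 5 to 78 reduced, 4 to 165 reversed, 0 to 42 larger in DKO and 4 to 45 kept. The highest values all came from leaving out control FFSS replicate 1, and leaving out any of the other libraries gave at most 59 genes, 38 lost, 12 reduced, 10 reversed, 3 larger in DKO and 13 kept. DESeq2 gave 175 genes (104 and 71), with 129 lost and 21 reduced, and DESeq2 without control FFSS replicate 1 gave 922 (488 and 434), with 738 lost, 66 reduced, 101 reversed, 17 larger in DKO and 36 kept. limma-voom with quality weights gave 1011 (439 and 572), with 743, 68, 153, 47 and 35, and limma-voom without weights 97 positive and 25 negative genes. Library totals alone gave 72 negative genes and 5 larger in DKO, and moved the share of positive genes from 57.7% to 36.8% with the median control response at 0.13, and limma-voom moved that share to 79.5%. With the share of reads outside genes as a covariate there were 20 negative genes, 34 lost, 6 larger in DKO and 25 kept, and 70.1% were positive. The filterByExpr filter left 1 gene larger in DKO. Without a fold limit there were 591 genes (340 and 251), at 1.5-fold 254 (150 and 104), and at an adjusted p below 0.01 34 (25 and 9). A limit of 0.33 on the retained share left 7 reversed genes and one of 0.15 gave 24 reduced genes, while a 1.5-fold limit on the DKO change left 3 reversed genes. Requiring the interval of kept genes to stay within 0.58 left 0, and differences in CPM gave 8 larger in DKO.

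Among named genes, the sign changed for Osmr (−0.31 with all libraries and 0.0169 with the covariate), for the second Hdac4 ID, which had an interaction of −0.12 (0.13 in DESeq2 without control FFSS replicate 1, 0.0869 with quality weights, and −0.25 to 0.11 over single libraries left out), for Sost (−0.84 with the covariate, −1.45 to 2.04 over single libraries left out) and for Dmp1 (−0.62 with the covariate, −0.12 to 1.72 over single libraries left out). None of these 4 was called by edgeR with all libraries, while Dmp1 was called with quality weights (1.56, adjusted p = 0.0140).

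The replicate numbers were not used to pair the libraries. Deviations from the group mean correlated by 0.00226 on average between libraries with 1 number and by −0.00116 between libraries with different numbers. Such deviations sum to 0 within a group, so these means depend on each other. They cannot show whether libraries with 1 number were handled together. A fit with the replicate number as a block called 84 genes, 76 of them among the 97, and 1 gene was larger in DKO.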

Other observations

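The 21 heat shock chaperone genes had a median log2 change of −0.28 in control and 0.01 in DKO cells. Besides Hspa1b, 6 of these genes had an adjusted p below 0.05 for the interaction in edgeR at less than a 2-fold difference, all positive, where 3.97% of all genes tested had such a p in either direction. These were Dnajb1 (0.80), an HSP40 co-chaperone, Hsph1 (0.64), Dnajb4 (0.53), the constitutive HSP70 gene Hspa8 (0.52), Hspa4l (0.50) and Hsp90ab1 (0.35). Of 26 genes of the integrated stress and unfolded protein response, 5 had such a p, all positive. Atf4, the transcription factor at the centre of that response, had a log2 change of −0.47 in control and 0.16 in DKO cells, and Trib3, one of its targets, of −0.98 and −0.08, all under 2-fold and so not called. Of 19 ERK feedback genes 4 had such a p, of which 3 were negative and 1 positive. These were the ERK-dependent factors Etv4 (−0.84, adjusted p = 0.0412) and Etv5 (−0.64, adjusted p = 0.0142), Ccnd1 (−0.49, adjusted p = 0.0157), which encodes cyclin D1, and the ERK inhibitor Spry1 (0.48, adjusted p = 0.0468). The lists were described after their values had been seen.

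Of the 13 genes called in DKO cells, 5 were reduced and 4 kept, and Egln3 and Gpr35 were undecided. The other two, Wnt11, a WNT ligand, and Acta1, skeletal actin, rose in DKO cells by 1.19 and 1.33 on the log2 scale and were not called in control cells, where the log2 values were 0.82 and 0.43. Their interactions were 0.37 (adjusted p = 0.299) and 0.90 (adjusted p = 0.0219) in edgeR.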
